A study of Mus musculus with 45 samples.

Results

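A set of 10 heat shock genes was followed through 2 perturbations of mouse tumour cells, a drug treatment and a knockdown of Soat1, the enzyme that esterifies cholesterol in the endoplasmic reticulum. The genes were chosen by symbol: Dnajb1, Hspa8, Hspa1a, Hspa1b, Hsph1, Hsp90aa1, Hsp90ab1, Hspb1, Hspd1 and Cryab, 10 of the 55335 genes in each of the 2 expression tables, and all 10 were found in both. The list was drawn up with earlier results of these data known, among them the response of Dnajb1 to the drug in Hepa1-6 cells and of Cryab to the Soat1 hairpins in CT26 cells. For those contrasts, and for the 2 others built on the same libraries (the difference between the lines in the drug response, and sh3 against the other Soat1 hairpins), the values of the 10 genes are therefore given as a description, without a p-value. The name cytosolic heat shock proteins does not cover Hspd1, whose product works inside mitochondria.

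The lines were CT26, a colon carcinoma line, and Hepa1-6, a liver line, both labelled wild type in the drug experiment. There, cells received a compound named only as stk for 48 h, or DMSO, the solvent. In the hairpin experiment, untreated knockdown lines were taken 24 h after seeding: CT26 with the Soat1 hairpins sh1, sh2 or sh3 or with a luciferase hairpin (shLucif), and Hepa1-6 with a scramble hairpin or with shLucif. Each group had 3 libraries, 30 in all; the labels list 6 stk samples a line, of which the 3 with a matching column were used, and the labels name no separate cultures, clones or animals for them, so that p-values measure the spread between libraries, which may be technical. Levels are FPKM, fragments scaled to transcript length and to library size, which can be compared between genes. Absolute read depth is unknown, so no counting error can be given. The FPKM of a library summed to between 314827.0 and 335812.8, and 11159 to 11555 genes reached 1 FPKM. In bulk RNA of this kind, a smaller share of cells of a type and less RNA per cell cannot be told apart.

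Heat shock proteins are chaperones that bind unfolded proteins and help them fold, and many of their genes are switched on by heat shock factor when proteins misfold. The HSP70 proteins (Hspa8, Hspa1a, Hspa1b) are driven through their ATP cycle by J proteins such as Dnajb1 and by the exchange factor Hsph1, and pass some clients to the HSP90 proteins Hsp90aa1 and Hsp90ab1. The small heat shock proteins Hspb1 and Cryab hold unfolding proteins without using ATP, and Hspd1 forms the folding chamber of the mitochondrial matrix together with Hspe1. Tumour cells often depend on this system.

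The promoters of 5 of the genes are shown because they belong to genes of different levels. Hspa1a, Hspa1b and Hspb1 stayed below 1 FPKM in every library, whereas Dnajb1 and Hsph1 were expressed in all and were higher with stk in Hepa1-6. Promoter entries were found for 6 of the 10 genes, the sixth being Hspd1; Hspa8, Hsp90aa1, Hsp90ab1 and Cryab were not matched. The bases lie upstream of the RefSeq start on build GRCm38.p6, 5′ to 3′ on the strand of the gene, and leave out bases in annotated exons. Capitals mark GAANNTTC, an arrangement of the heat shock element unit in which N is any base. TTCNNGAA, the other arrangement, was searched too, and each reads the same on both strands. Hspa1a lies at chr17:34972157-34972406 and Hspa1b at chr17:34959239-34959488, both on the minus strand. Hspb1 lies at chr5:135887669-135887918 and Dnajb1 at chr8:83607972-83608174, both on the plus strand, and Hsph1 at chr5:149636377-149636586 on the minus strand.
Hspa1a: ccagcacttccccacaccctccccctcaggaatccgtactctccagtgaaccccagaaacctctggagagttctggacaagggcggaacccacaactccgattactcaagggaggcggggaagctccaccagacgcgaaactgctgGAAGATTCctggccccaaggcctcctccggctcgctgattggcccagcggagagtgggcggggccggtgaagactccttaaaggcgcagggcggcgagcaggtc
Hspa1b: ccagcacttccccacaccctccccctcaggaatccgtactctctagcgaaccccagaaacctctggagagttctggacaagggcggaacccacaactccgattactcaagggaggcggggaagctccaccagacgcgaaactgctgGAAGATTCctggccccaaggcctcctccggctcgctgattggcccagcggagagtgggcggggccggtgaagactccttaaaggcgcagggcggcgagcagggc
Hspb1: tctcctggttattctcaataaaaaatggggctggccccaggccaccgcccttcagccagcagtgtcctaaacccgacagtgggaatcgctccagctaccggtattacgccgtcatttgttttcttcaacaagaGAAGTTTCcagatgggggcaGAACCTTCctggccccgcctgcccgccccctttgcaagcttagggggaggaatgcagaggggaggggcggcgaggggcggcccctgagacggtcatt
Dnajb1: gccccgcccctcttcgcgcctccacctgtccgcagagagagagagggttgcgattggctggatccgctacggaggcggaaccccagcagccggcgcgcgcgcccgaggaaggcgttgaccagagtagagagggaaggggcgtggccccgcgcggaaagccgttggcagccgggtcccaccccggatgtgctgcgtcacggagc
Hsph1: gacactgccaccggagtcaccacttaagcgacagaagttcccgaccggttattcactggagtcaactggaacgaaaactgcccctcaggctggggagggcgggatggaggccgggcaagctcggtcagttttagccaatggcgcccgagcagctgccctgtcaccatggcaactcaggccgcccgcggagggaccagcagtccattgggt

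Hspa1a and Hspa1b each held 1 GAANNTTC, the site GAAGATTC, 104 bases upstream of the start. Hspb1 held 2, GAAGTTTC 117 bases and GAACCTTC 97 bases upstream. No match to either arrangement was present in the 203 bases of Dnajb1 or the 210 bases of Hsph1 printed here. Over the full 250 bases upstream, exon bases included, Hsph1 held 1 match and Dnajb1 none, and Hspd1 held 3 at one of its 2 starts and none at the other. In windows of that length, 12.8% of 32851 promoter windows of the mouse table held at least 1 of the 2 arrangements. A match is a description of letters, and its absence says nothing about the binding of a factor. The windows of Hspa1a and Hspa1b were 98.8% identical and their coding sequences 99.4% identical, so that reads could have been split between these neighbours on chromosome 17, and their values are uncertain one by one.

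One group of libraries went against its label. The libraries labelled Hepa1-6 shLucif had little of the hepatocyte genes that mark Hepa1-6 elsewhere: Alb (albumin) averaged 135 FPKM in scramble, against 1.49 FPKM in the libraries labelled shLucif, and 159 FPKM in the DMSO libraries of Hepa1-6. Hnf4a, a hepatocyte transcription factor, averaged 43.2 FPKM in scramble, against 5.15 FPKM in the libraries labelled shLucif, and 40.5 FPKM in the DMSO libraries. The 16 hepatocyte markers summed to 338 to 375 FPKM in scramble, with 7 markers at 1 FPKM or more, against 17.1 to 17.6 FPKM with 3 markers in the libraries labelled shLucif. Soat1 stood at 0.159, 0.182 and 0.0977 FPKM in scramble, against 12.7, 12.8 and 13.6 FPKM in the libraries labelled shLucif. Collagen genes that mark CT26 were present, with Col1a1 at 0.154 FPKM in scramble against 13.7 FPKM in the libraries labelled shLucif. The 9 fibroblast markers, to which Col1a1 belongs, went the other way as a sum. They had 247 to 266 FPKM in scramble, against 43.8 to 49.9 FPKM in the libraries labelled shLucif. Of the 4 fibroblast markers tested, 2 were higher and 2 lower in scramble, where 31.4% of 12055 genes were higher and 36.8% lower. In scramble 2 of the markers had 1 FPKM or more, against 3 in the libraries labelled shLucif. Some of the 4 were therefore tested only because 1 group was high and had to differ, and nothing is read from these calls. Over 13562 genes, the mean profile of scramble correlated at r = 0.985 with that of Hepa1-6 under DMSO and at r = 0.766 with that of CT26 under DMSO. That of the libraries labelled shLucif correlated at r = 0.901 with Hepa1-6 and r = 0.917 with CT26 under DMSO. Within the hairpin experiment, the libraries labelled shLucif correlated at r = 0.8974 with scramble and r = 0.8969 with shLucif of CT26. Scramble against these libraries therefore compares unlike cell profiles, from which the hairpin cannot be told apart. The Hepa1-6 shLucif libraries are called the libraries labelled shLucif below and enter 1 comparison only. The Soat1 hairpins in CT26 matched their labels: Soat1 was at 3.23 to 3.29 FPKM with sh1, 3.41 to 3.55 FPKM with sh2 and 2.52 to 2.71 FPKM with sh3, against 19.7 to 20.2 FPKM with shLucif. CT26 libraries held 0 FPKM of Alb and Epcam under DMSO, so the epithelial adhesion gene Epcam did not mark this carcinoma line.

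In FPKM, the 10 genes covered a wide range of levels. Hsp90ab1, the constitutive HSP90, had 605 to 1216 FPKM over the 30 libraries, and Hspd1 had 439 to 666 FPKM. Hsp90ab1 was the higher of these in every library but CT26 shLucif library 1, where it had 621 FPKM and Hspd1 624 FPKM. Hsp90aa1, the inducible HSP90, had 215 to 305 FPKM, below Hsp90ab1 in every library, and Hspa8, the constitutive HSP70, had 124 to 378 FPKM. Hsph1 had 19.4 to 48.9 FPKM, Dnajb1 14.0 to 27.8 FPKM and Cryab 0.573 to 46.2 FPKM. Together the 10 genes made up 0.445% to 0.771% of the summed FPKM of a library.

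The strongly inducible HSP70 genes and Hspb1 had low FPKM. Hspa1a did not pass 0.0679 FPKM in the drug experiment or 0.256 FPKM in the hairpin experiment, Hspa1b 0.206 and 0.707 FPKM, and Hspb1 0.376 and 0.426 FPKM. The sum of Hspa1a and Hspa1b was at most 0.228 FPKM in the drug experiment. How reads shared by the pair were counted is not given, and if they were dropped the sum would be too low as well. These 3 genes and the sum stayed under the filter of 1 FPKM in at least 3 libraries of a comparison and were not tested. Of the 10 genes, 7 were tested in every comparison, by limma on log2(FPKM + 1) with Benjamini-Hochberg adjustment over all genes tested and a threshold of 0.05. Fold changes are given on that log2 scale, which understates the change of low genes.

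In Hepa1-6 cells, Dnajb1, Hsph1 and Hspa8 were higher with stk. Dnajb1 had 27.7, 27.6 and 27.8 FPKM in stk libraries, against 19.9, 19.3 and 20.3 FPKM in DMSO libraries. The stk libraries of Dnajb1 lay close together and above all DMSO libraries, a log2 fold change of 0.46 ± 0.04 (SE, n = 3 each). Hsph1 had 46.9, 42.6 and 45.9 FPKM in stk libraries, against 36.0, 35.3 and 35.7 FPKM in DMSO libraries, a log2 fold change of 0.33 ± 0.04 (SE). Hspa8 had 317, 314 and 295 FPKM in stk libraries, against 254, 229.9 and 250.4 FPKM in DMSO libraries, a log2 fold change of 0.33 ± 0.05 (SE). For all 3 genes every stk library exceeded every DMSO library. They act in one cycle: Dnajb1 loads clients onto Hspa8, and Hsph1 resets it.

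The other tested members in Hepa1-6 moved little. Hsp90ab1 averaged 882 ± 27.7 FPKM with stk and 815 ± 21.3 FPKM with DMSO (SD, n = 3 each). Hsp90aa1 averaged 222 ± 6.17 FPKM with stk and 235 ± 2.47 FPKM with DMSO, and Hspd1 574 ± 7.40 FPKM with stk and 604 ± 8.99 FPKM with DMSO. These 3 genes had groups that did not overlap, Hsp90ab1 higher and Hsp90aa1 and Hspd1 lower with stk, but none passed the test. Cryab had 4.29, 3.7 and 4.0 FPKM with stk, against 4.59, 5.29 and 3.59 FPKM with DMSO, and its groups overlapped. In all, 3 of 7 tested members passed, all higher, where 1.53% of 11426 genes passed in either direction and 0.683% as higher, and 6 of 7 had groups that did not overlap, where 30.8% of all genes had none; since the list was drawn up with this contrast known, nothing is read from these shares. The calls depended on having all 6 libraries: with any 1 left out, Hspa8 (log2 fold change 0.29 to 0.37) and Hsph1 (0.30 to 0.37) no longer passed, and Dnajb1 no longer passed without stk library 2 (0.46) or DMSO library 2 (0.44). Without the filter on low values Dnajb1 alone passed, and with the length trend removed Hspa8 did not (0.31). The 9 fibroblast markers summed to 184 to 186 FPKM with stk and 197 to 199 FPKM with DMSO, with 2 and 1 to 2 markers at 1 FPKM or more and Dcn the abundant one. The 9 intestinal markers summed to 233 to 235 FPKM with stk and 242 to 251 FPKM with DMSO, with 5 markers at 1 FPKM or more in each, and the 10 leukocyte markers to 5.95 to 7.99 FPKM with stk and 7.31 to 8.77 FPKM with DMSO. The part of these shifts in the heat shock values was not tested.

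**Figure D1:**
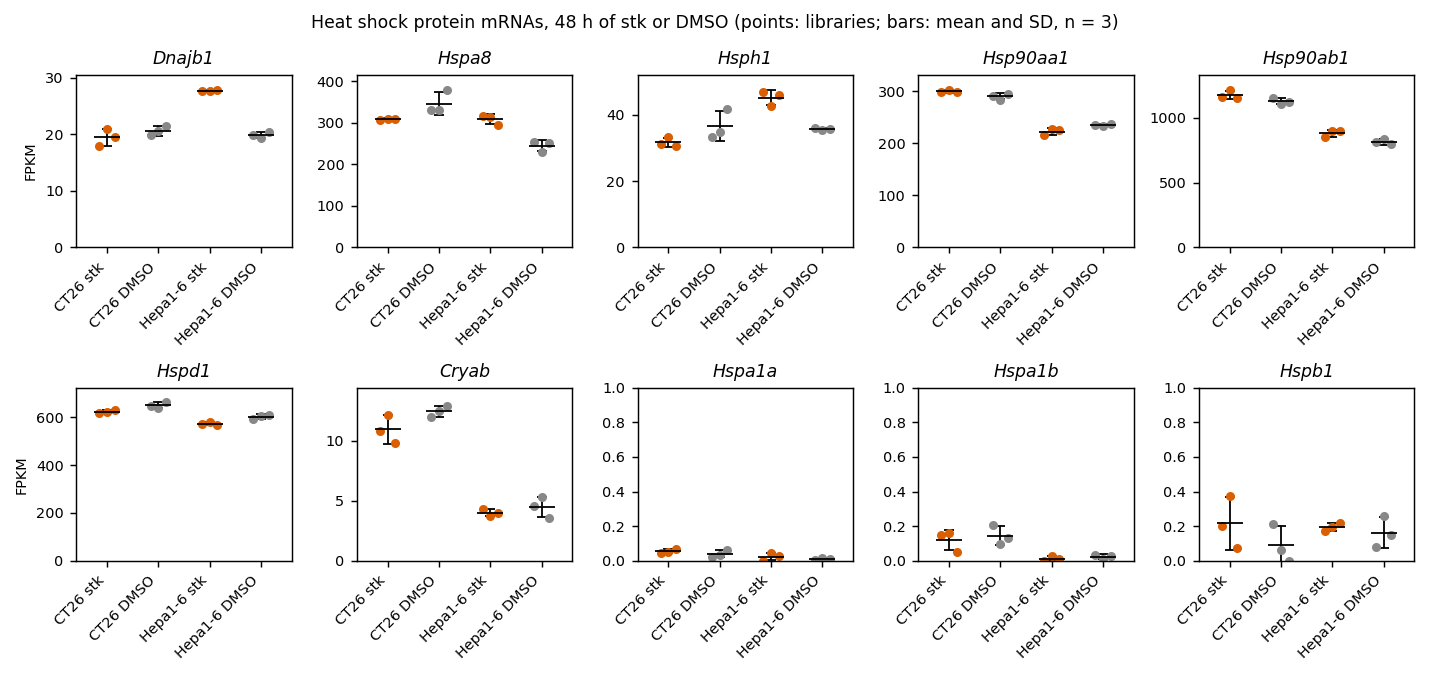
FPKM of the 10 genes in the drug experiment, 1 panel a gene with its own axis from 0, for stk and DMSO libraries of CT26 and of Hepa1-6 (points: libraries; bars: mean and SD, n = 3). Dnajb1, Hspa8 and Hsph1 are higher in the stk than in the DMSO libraries of Hepa1-6 but not of CT26, and Hspa1a, Hspa1b and Hspb1 stay below 1 FPKM.

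In CT26 cells none of the 7 tested members passed with stk, where 0.748% of 11358 genes did (85 genes by limma, and 1656 at an unadjusted p under 0.05). Dnajb1 had 17.9, 20.9 and 19.5 FPKM in stk libraries, against 19.8, 20.5 and 21.4 FPKM in DMSO libraries (log2 fold change -0.08 ± 0.06 SE, adjusted p = 0.621). Its groups overlapped. Hspa8 had 306, 310.3 and 309.9 FPKM in stk libraries, against 330.1, 330.0 and 378 FPKM in DMSO libraries (-0.16 ± 0.06 SE, adjusted p = 0.262). Hsph1 had 31.2, 33.1 and 30.6 FPKM in stk libraries, against 33.2, 34.7 and 41.9 FPKM in DMSO libraries (-0.20 ± 0.09 SE, adjusted p = 0.363). For Hspa8 and Hsph1 every stk library lay below every DMSO library, and DMSO library 3 was the highest of all for both.

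Cryab averaged 10.95 ± 1.17 FPKM with stk and 12.5 ± 0.437 FPKM with DMSO in CT26 (SD, n = 3 each), with overlapping groups (-0.18 ± 0.08 SE, adjusted p = 0.361). The HSP90 genes were slightly higher with stk, Hsp90aa1 by 0.05 (adjusted p = 0.475) and Hsp90ab1 by 0.06 (adjusted p = 0.407) on the log2 scale, and Hspd1 was lower (-0.06, adjusted p = 0.342). Groups of 5 of the 7 members did not overlap, where 21.4% of all genes had groups that did not. None of these differences passed, which does not show that the levels were alike.

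The difference between the lines in the stk response was fitted over the 12 drug libraries. The stk response in CT26 minus that in Hepa1-6 was -0.54 ± 0.07 (SE) on the log2 scale for Dnajb1, -0.50 ± 0.08 for Hspa8 and -0.53 ± 0.10 for Hsph1. Dnajb1 and Hspa8 passed and Hsph1 did not, where 0.304% of 12822 genes passed; the list was drawn up with the response in Hepa1-6 known, and nothing is read from this share. The difference was 0.13 ± 0.04 for Hsp90aa1, -0.05 ± 0.04 for Hsp90ab1, 0.01 ± 0.03 for Hspd1 and -0.05 ± 0.15 for Cryab, none of which passed. Hspa8 passed in only 1 of the 12 fits that leave out a library, the one without CT26 DMSO library 3, where Hsph1 passed too (-0.43). Without Hepa1-6 stk library 1 or 3, or Hepa1-6 DMSO library 2 or 3, Dnajb1 did not pass either, its difference then lying between -0.56 and -0.52.

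The wider chaperone network was read from 8 lists of 86 genes: heat shock factors, the other HSP70 and HSP110 genes, the other cytosolic J proteins, co-chaperones of HSP90 and HSP70, the other small heat shock proteins, the CCT chaperonin with prefoldin, the other mitochondrial chaperones and proteases, and ER chaperones. With stk, none of their 78 genes tested in CT26 and none of the 76 tested in Hepa1-6 passed, and none of 78 passed for the difference between the lines. With 0.748%, 1.53% and 0.304% of all genes called, these counts are near the background. The co-chaperone list had a median log2 fold change of 0.03 with stk in Hepa1-6, and the J protein list of 0.001, beside 0.003 over all genes and 0.11 over the 7 members. Hsf1, the main heat shock factor, belongs to these lists and did not pass.

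Under DMSO the lines differed in 5 of the 7 tested members, all higher in CT26, where 76.8% of 12822 genes differed and 38.5% were higher. The same 5 had groups that did not overlap, where 79.7% of all genes did not. The Hepa1-6 DMSO libraries also enter the stk contrast known when the list was drawn up. Cryab had the largest log2 difference among the tested members. It had 12.0, 12.5 and 12.9 FPKM in CT26, against 4.59, 5.29 and 3.59 FPKM in Hepa1-6 (log2 fold change 1.30 ± 0.11 SE, adjusted p = 5.58e-07). Hspa8 had 330.1, 330.0 and 378 FPKM in CT26, against 254, 229.9 and 250.4 FPKM in Hepa1-6 (0.50 ± 0.06 SE, adjusted p = 8.86e-06). Hsp90ab1 had 1153, 1111 and 1126 FPKM in CT26, against 813, 838 and 795 FPKM in Hepa1-6 (0.47 ± 0.03 SE, adjusted p = 9.08e-08). No CT26 library of these genes fell into the range of Hepa1-6.

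Smaller differences between the lines were found for Hsp90aa1, with 290.2, 284 and 295 FPKM in CT26 against 235, 232 and 237 FPKM in Hepa1-6 (0.30 ± 0.03 SE, adjusted p = 9.39e-07), and for Hspd1, with 646, 641 and 666 FPKM in CT26 against 594, 607 and 611 FPKM in Hepa1-6 (0.11 ± 0.02 SE, adjusted p = 0.00114). The difference of Hspd1 did not pass with quantile normalization (0.03, adjusted p = 0.396). Dnajb1 averaged 20.6 ± 0.827 FPKM in CT26 and 19.9 ± 0.506 FPKM in Hepa1-6 (SD, n = 3 each; adjusted p = 0.403), and Hsph1 36.6 ± 4.62 FPKM in CT26 and 35.6 ± 0.32 FPKM in Hepa1-6 (adjusted p = 0.726). Dnajb1 and Hsph1, which were higher with stk in Hepa1-6, overlapped between the lines under DMSO. Of the chaperone lists, 38 of 78 tested genes were higher and 24 lower in CT26. This share of 79.5% stood beside 76.8% of all genes, 38.5% of all being higher. ER chaperones made up 11 of the higher and 2 of the lower ones, led by Dnajc3, an inhibitor of the kinase that slows translation under ER stress (1.13 ± 0.04 SE, adjusted p = 7.85e-10). Hspa9, the mitochondrial HSP70, was higher, at 458 FPKM in CT26 against 182 FPKM in Hepa1-6 (1.33 ± 0.03 SE, adjusted p = 4.79e-12).

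Across the 4 drug groups, Dnajb1 was highest in stk-treated Hepa1-6, and the other 3 groups overlapped with their neighbours. By group means Hsph1 had the same order as Dnajb1, with Hepa1-6 with stk first, then CT26 with DMSO, Hepa1-6 with DMSO and CT26 with stk. For Hspa8 the order was CT26 with DMSO, CT26 with stk, Hepa1-6 with stk and Hepa1-6 with DMSO, and CT26 with stk and Hepa1-6 with stk overlapped. That placed the stk libraries of both lines together, at 306 to 310.3 FPKM in CT26 and 295 to 317 FPKM in Hepa1-6. Hsp90ab1 kept both CT26 groups above both Hepa1-6 groups, as did Hsp90aa1, Hspd1 and Cryab.

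In CT26 cells with a Soat1 hairpin, mean Cryab was 2.85 to 3.93 times the control mean. It had 37.1, 39.4 and 32.6 FPKM with sh1, 34.0, 32.1 and 32.3 FPKM with sh2 and 44.97, 46.2 and 44.7 FPKM with sh3, against 11.3, 12.3 and 11.01 FPKM with shLucif. All 9 hairpin libraries lay above all shLucif libraries, and those of sh3 above all others. The log2 fold change of Cryab was 1.58 with sh1, 1.43 with sh2 and 1.89 with sh3 (SE 0.06 each, n = 3 each). CT26 with DMSO had 12.0 to 12.9 FPKM of Cryab in the drug experiment. That experiment was a separate batch by the labels, so that the levels were not compared. The 3 comparisons share the shLucif libraries.

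Hspd1 was lower with each Soat1 hairpin. It had 439, 452 and 455 FPKM with sh1, 458, 462 and 449 FPKM with sh2 and 475, 476 and 463 FPKM with sh3, against 624, 629.5 and 629.3 FPKM with shLucif. The control libraries lay close together and above all others. The log2 fold change was -0.48 with sh1, -0.46 with sh2 and -0.41 with sh3 (SE 0.03 each), which put the hairpin means at 71.5%, 72.7% and 75.1% of the control mean. Hspe1, the lid of the chamber that Hspd1 forms, averaged 200.5 ± 13.1 FPKM with sh1 and 205 ± 12.9 FPKM with sh2, against 204 ± 7.48 FPKM with shLucif (SD, n = 3 each), and was at 138 ± 0.34 FPKM with sh3. The 2 genes lie head to head on chromosome 1 and overlap by 112 bases in the annotation, and reads there could count for either.

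Hspa8, Hsp90aa1 and Hsp90ab1 stood apart in sh3. Hsp90ab1 had 696, 663 and 625 FPKM with sh1, 605, 666 and 608 FPKM with sh2 and 1020.3, 951 and 844 FPKM with sh3, against 621, 642 and 639 FPKM with shLucif. Hspa8 had 129, 150.2 and 124 FPKM with sh1, 129, 148 and 151 FPKM with sh2 and 200.2, 216 and 186 FPKM with sh3, against 144, 147 and 162 FPKM with shLucif. The sh1 and sh2 libraries of both genes overlapped with the control, and those of sh3 lay above every one. Hsp90aa1 had 291, 305 and 280.5 FPKM with sh3, above the 222 to 269 FPKM of the other CT26 libraries of the hairpin experiment. Log2 fold changes with sh3 were 0.56 ± 0.07 for Hsp90ab1, 0.41 ± 0.09 for Hspa8 and 0.26 ± 0.08 for Hsp90aa1 (SE). All 3 passed, but the list was drawn up with the hairpin contrasts known, and nothing is read from these calls. For Hsp90aa1 the call was lost without sh3 library 2 (0.23) or shLucif library 1 (0.20), and with the length trend removed (0.18).

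Dnajb1 and Hsph1, which were higher with stk in Hepa1-6, did not pass with any hairpin. Dnajb1 averaged 14.4 ± 0.55 FPKM with sh1, 16.0 ± 0.496 FPKM with sh2 and 16.2 ± 0.162 FPKM with sh3, against 15.5 ± 0.794 FPKM with shLucif (SD, n = 3 each). Hsph1 averaged 20.5 ± 0.973 FPKM with sh1, 22.4 ± 0.552 FPKM with sh2 and 23.4 ± 1.67 FPKM with sh3, against 22.9 ± 1.03 FPKM with shLucif. Without sh1 library 2, Hspa8 passed with sh1 as lower (-0.26), and without shLucif library 2 so did Hsph1 (-0.19). Counted over the list, 2 of 7 members passed with sh1, where 37.8% of 11832 genes did, 2 of 7 with sh2, where 38.9% did, and 5 of 7 with sh3, where 52.5% did. Groups did not overlap for 3 of 7 members with sh1, 2 of 7 with sh2 and 5 of 7 with sh3, where 50.1%, 52.1% and 61.8% of all genes had groups that did not. The list was drawn up with these contrasts known, and nothing is read from these shares.

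**Figure D2:**
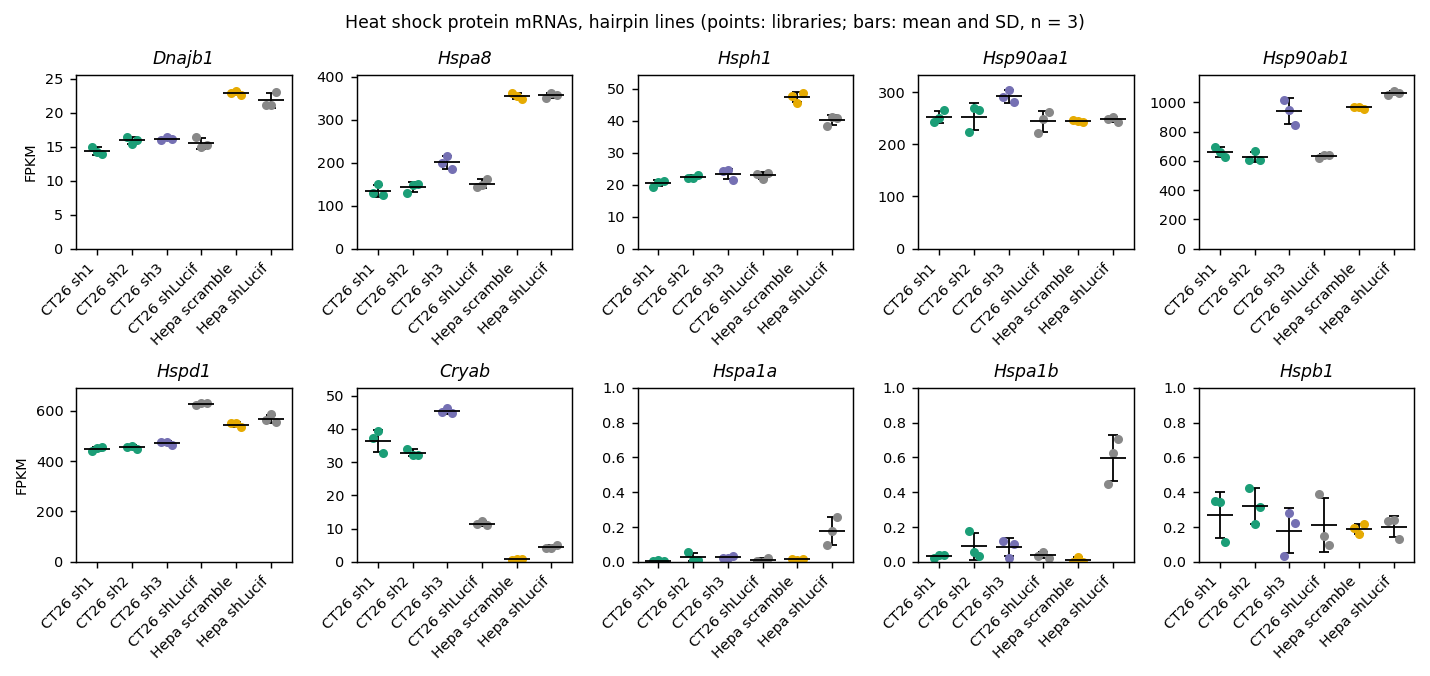
FPKM of the 10 genes in the hairpin experiment, 1 panel a gene with its own axis from 0, for CT26 with the Soat1 hairpins sh1, sh2 and sh3 and shLucif, and for scramble and the libraries labelled shLucif of Hepa1-6 (points: libraries; bars: mean and SD, n = 3). Cryab is above and Hspd1 below the CT26 control with all 3 hairpins, and every sh3 library is above every control library for Hspa8 and Hsp90ab1, while those of sh1 and sh2 overlap with the control.

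The difference between sh3 and the mean of sh1 and sh2 was fitted in the same model. It was 0.54 ± 0.06 (SE) on the log2 scale for Hsp90ab1, 0.54 ± 0.07 for Hspa8, 0.38 ± 0.05 for Cryab, 0.21 ± 0.07 for Hsp90aa1 and 0.06 ± 0.02 for Hspd1, all of which passed. Dnajb1 (0.09) and Hsph1 (0.12) did not pass. All 5 members that passed were higher with sh3, where 35.5% of 11832 genes were higher and 60.2% differed in either direction; these libraries entered the contrasts known when the list was drawn up, and nothing is read from this share. Hspd1 lost the call in 7 of the 9 fits that leave out a library, all but those without sh3 library 3 or sh1 library 3, with differences of 0.05 to 0.07, and turned to -0.02 with the length trend removed. Hsp90aa1 did not pass without sh3 library 2 (0.18), without the filter or with the length trend removed (0.13). Hsph1 passed without sh3 library 3 (0.18) and Dnajb1 without sh1 library 1 (0.11).

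The sh3 libraries also stood apart in other respects. Over 13562 genes the mean profile of sh3 correlated with that of sh1 at r = 0.972 and with that of sh2 at r = 0.971, while sh1 and sh2 correlated at r = 0.997. With shLucif, r was 0.9857 for sh1, 0.9855 for sh2 and 0.978 for sh3. With CT26 under DMSO in the drug experiment, however, sh3 had the highest r of the CT26 hairpin groups. It was 0.9774 for sh3, against 0.9645 for shLucif, 0.9587 for sh1 and 0.959 for sh2. The 9 fibroblast markers summed to 180.5 to 188 FPKM with sh3, against 126 to 131 FPKM with sh1, 116 to 126 FPKM with sh2 and 128 to 130.1 FPKM with shLucif, with 5 of the 9 at 1 FPKM or more in each. The 9 intestinal markers summed to 42.5 to 46.8 FPKM with sh3, against 21.7 to 22.1 FPKM with shLucif, mostly from Krt20. Their sum was also raised, though less, with sh1 (25.3 to 34.6 FPKM) and sh2 (23.8 to 28.7 FPKM). Of the 9, 3 were at 1 FPKM or more with sh3, 1 or 2 with sh1 and sh2 and 1 with shLucif. Epcam averaged 0.01 FPKM or less throughout. The 10 leukocyte markers summed to 6.54 to 6.83 FPKM with sh3, 8.54 to 9.11 FPKM with sh1 and 6.98 to 9.14 FPKM with sh2, against 10.01 to 10.5 FPKM with shLucif, with 1 or 2 of them at 1 FPKM or more. Cd68 was the abundant one, at 4.97 FPKM with sh3 against 6.33 FPKM with shLucif, Cd74 had 1.1 FPKM with sh3 against 3.29 FPKM with shLucif, and Ptprc, the pan-leukocyte marker, averaged at most 0.006 FPKM. The leukocyte sum was below shLucif with each hairpin, so this fall was not particular to sh3. The 2 leukocyte markers tested had a median log2 fold change of -0.51 with sh1, -0.58 with sh2 and -0.67 with sh3. Each shLucif library had 2 leukocyte markers at 1 FPKM or more, but each sh1 and sh2 library only 1. The lower of the tested markers thus passed the filter through the control, and nothing is read from this median. The part of these shifts in the values of the heat shock genes was not tested.

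In the chaperone lists, 17 of 78 tested genes rose with sh1 and 20 fell, with sh2 15 and 18, and with sh3 20 and 33, or 47.4%, 42.3% and 67.9% of them, beside the 37.8%, 38.9% and 52.5% of all genes. Nothing particular to the lists is read from these shares. Genes named from these lists, here and in the other comparisons, are at most the 2 called genes of largest change per list. The lists were chosen with earlier results of these data known, so the adjusted p-values of these genes are no independent evidence. Hspa9, the partner of Hspd1 in protein import and folding, fell to 568 ± 7.01 FPKM with sh1, 559 ± 10.5 FPKM with sh2 and 519 ± 31.8 FPKM with sh3, against 812 ± 8.01 FPKM with shLucif (SD, n = 3 each; log2 fold changes -0.52, -0.54 and -0.65, adjusted p at most 3.12e-06 by limma). Lonp1, the matrix protease, fell with sh3 (log2 fold change -0.76 ± 0.06 SE, adjusted p = 3.27e-06). Of the 13 mRNAs encoded by the mitochondrial genome, 8 fell with sh1, 5 with sh2 and 2 with sh3 and none rose. Among all genes called, 50.6% were higher with sh1, 48.5% with sh2 and 58.8% with sh3, and the rest lower. The part of the mitochondrial mRNAs in the values of Hspd1 was not tested.

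In the cytosol, Hspa4l, an HSP110 relative of Hsph1, rose with each hairpin (0.37, 0.36 and 0.41, adjusted p = 0.0014, 0.00161 and 0.000373 for sh1, sh2 and sh3). Bag2, a co-chaperone that inhibits client ubiquitination, rose with sh1 (0.51 ± 0.05 SE, adjusted p = 8.47e-06) and sh2 (0.43 ± 0.05 SE, adjusted p = 3.03e-05). Stip1, which bridges HSP70 and HSP90, fell with sh3, to 179 ± 2.44 FPKM against 249 FPKM with shLucif (-0.48 ± 0.03 SE, adjusted p = 2.89e-07), where the HSP90 genes themselves rose. Vbp1, a prefoldin subunit, rose with each hairpin (1.23, 1.43 and 1.35, adjusted p at most 6.35e-06). Of all genes, 37.8% passed in either direction with sh1, 38.9% with sh2 and 52.5% with sh3. Among these calls, 50.6%, 48.5% and 58.8% were higher. Of the 14 ER chaperones, 9 rose and 1 fell with sh1 and with sh2, and 6 and 5 with sh3. Hyou1, an ER relative of Hsph1, led the list with sh1 (0.47 ± 0.04 SE, adjusted p = 1.22e-05) and sh2 (0.42 ± 0.04 SE, adjusted p = 3.11e-05). The other small heat shock proteins included Hspb6, which rose with sh3 (0.43 ± 0.07 SE, adjusted p = 0.000305).

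Hspe1 was lower with sh3 than with the mean of sh1 and sh2 (log2 difference -0.55 ± 0.05 SE, adjusted p = 2.05e-06), whereas the difference of Hspd1, its partner, was 0.06 (-0.02 with the length trend removed). Dnajb6, a J protein that suppresses aggregation, was lower with sh3 in the same comparison (-0.57 ± 0.03 SE, adjusted p = 1.02e-07), and St13, which holds HSP70 in its client-bound state, was higher (0.47 ± 0.03 SE, adjusted p = 7.2e-07). Over the 8 lists, 22 of 78 tested genes were higher and 28 lower with sh3 than with the mean of sh1 and sh2. That was 64.1% of them, beside 60.2% of all genes, and nothing particular to the lists is read from it.

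**Figure D3:**
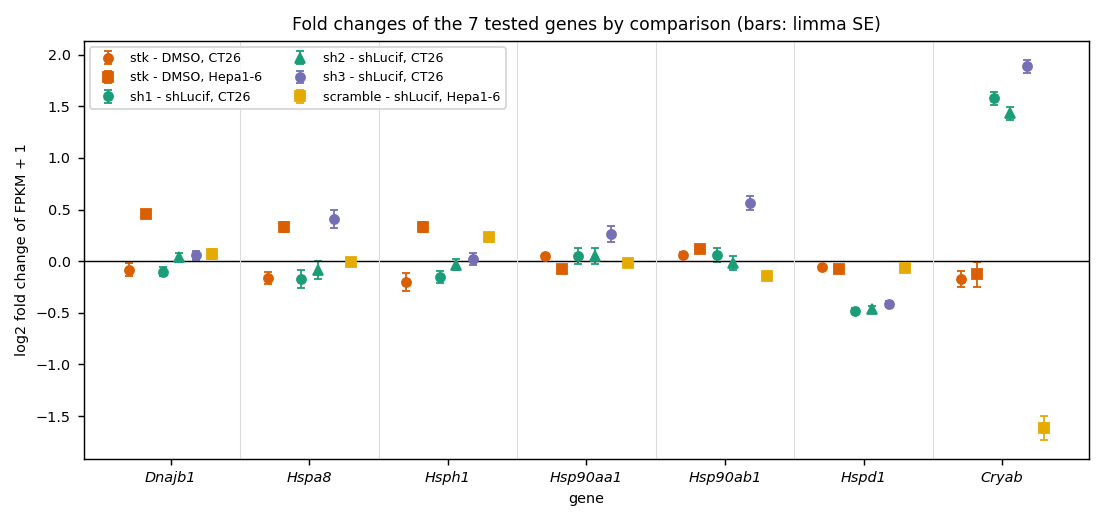
Log2 fold change of FPKM + 1 for the 7 tested genes in 6 comparisons (points: limma estimate; bars: SE, n = 3 libraries a group). Cryab is the one gene beyond 1 in either direction, higher with the 3 Soat1 hairpins in CT26 and lower in scramble than in the libraries labelled shLucif in Hepa1-6, while the 7 genes lie between -0.20 and 0.46 with stk.

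Over the 12 CT26 hairpin libraries, the genes whose levels followed Cryab most closely were Ttc9 (Pearson r = 0.993), Cpne2 (0.991) and Igfbp6 (0.99), of 11831 genes compared on the log2 scale. For Hspd1 they were Blmh (0.986), Emc2 (0.985) and Gm12751 (0.985), and for Hsp90ab1 Pacs1 (0.991), Parp1 (0.99) and Xkr5 (0.99). The best match of Hspa8 was Cep57l1 (0.959) and of Hsp90aa1 Zfp81 (0.937). For Hsph1 it was Poc1b (0.893) and for Dnajb1 Snord104 (0.839). Among the members, Hspa8 and Hsp90ab1 varied together (r = 0.863) and Hspd1 and Cryab oppositely (r = -0.936). These coefficients describe libraries that share 4 groups, and they carry no test.

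In Hepa1-6, the scramble hairpin was compared with the libraries labelled shLucif, with the limit above on that label. Cryab had 0.573, 0.776 and 0.985 FPKM in scramble libraries, against 4.13, 4.08 and 5.1 FPKM in the libraries labelled shLucif (log2 fold change -1.62 ± 0.11 SE). Cryab passed the filter only through the libraries labelled shLucif, so that it had to differ, and its value is given without a test. Hepa1-6 with DMSO had 3.59 to 5.29 FPKM of Cryab in the drug experiment, a separate batch by the labels. Hspb2, which overlaps Cryab by 1030 bases on the opposite strand and could share reads with it, was listed at 0 in the scramble libraries and averaged 0.484 FPKM in those labelled shLucif.

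Hsp90ab1 had 972, 971 and 956 FPKM in scramble libraries, against 1052, 1079 and 1063 FPKM in the libraries labelled shLucif (-0.14 ± 0.03 SE, adjusted p = 0.00822). Hsph1 had 47.7, 45.7 and 48.9 FPKM in scramble libraries, against 38.5, 41.3 and 41.0 FPKM in the libraries labelled shLucif (0.23 ± 0.04 SE, adjusted p = 0.00278). Both passed and their groups did not overlap, but the call of Hsp90ab1 was lost with quantile normalization (-0.10, adjusted p = 0.0995) and without the filter (adjusted p = 0.0536). Hspa8 averaged 355 ± 6.997 FPKM in scramble and 357 ± 6.21 FPKM in the libraries labelled shLucif (SD, n = 3 each; adjusted p = 0.866), the highest Hspa8 of the hairpin experiment. Dnajb1, Hsp90aa1 and Hspd1 did not pass (adjusted p = 0.216, 0.62 and 0.171). Of the 6 tested members other than Cryab, 1 passed as higher and 1 as lower, where 68.2% of 12055 genes did, 31.4% as higher and 36.8% as lower.

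The sum of Hspa1a and Hspa1b reached its highest values in the libraries labelled shLucif of Hepa1-6, with 0.0174, 0.0393 and 0.0175 FPKM in scramble libraries, against 0.543, 0.803 and 0.963 FPKM in the libraries labelled shLucif. These groups did not overlap, and the level stayed below 1 FPKM. Of the 12055 genes that passed the filter, 73.2% had groups that did not overlap, but the sum was not among them. Hspb1 had 0.158 to 0.216 FPKM in scramble and 0.133 to 0.238 FPKM in the libraries labelled shLucif. ER chaperones were lower in scramble for 13 of 14 genes and higher for 1, where 36.8% of 12055 genes were lower and 31.4% higher. Manf was at 22.5 ± 0.561 FPKM in scramble against 46.7 FPKM in the libraries labelled shLucif (-1.02 ± 0.04 SE, adjusted p = 2.07e-06).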

How the data were processed

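Total RNA of 45 labelled samples was sequenced in pairs after TRIzol extraction and trimming with Skewer, per the labels' protocols. The submitters' processing notes name HISAT2, STAR, DESeq2, edgeR and GRCm38. Which tool made the tables, and whether counting used strand, is not given in the sources used here. The authors deposited 2 tables of FPKM per gene, 1 for each experiment. The table names point to the other experiment than the columns they hold, and libraries were assigned by column name. A column was used where its name matched a label, which left 30 libraries. Another 21 columns matched no label and were not used, and the Soat1 hairpins of Hepa1-6 were not analysed here. The 3 sh1 columns were matched as a group and are numbered by column. By the labels each experiment was 1 batch.

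From the FPKM, limma 3.58.1 in R 4.3.3 (limma-trend, checked on simulated data) was run on log2(FPKM + 1) for genes at 1 FPKM or more in at least 3 libraries of a model, with Benjamini-Hochberg adjustment over all genes tested and a threshold of 0.05. There was 1 model for each line of the drug table, 1 over its 4 groups (differences between lines), 1 over the 4 CT26 hairpin groups and 1 for the Hepa1-6 hairpins. FPKM holds no counts, so no count model was run. The members and lists were chosen with earlier results of these data known. All members are described in each comparison, and of other chaperone lists at most the 2 called genes of largest change. Alternatives were a pseudocount of 0.1, no filter, quantile normalization, a replicate block, leaving out each library, summing Hspa1a and Hspa1b, and, chosen after seeing the data, removing the trend with GENCODE M21 exon length and a 4-group fit of the drug table. Loci and overlaps are from GENCODE M21, promoters from RefSeq (GRCm38.p6).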

Additional observations from a re-analysis of the deposited data

Results flagged for a closer look

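The response to stk differed between the lines for Dnajb1 (CT26 minus Hepa1-6, -0.542 on the log2 scale) and for Hspa8 (-0.495), by the interaction term of the 4 drug groups. In fits that leave out a library, Dnajb1 kept this call in 8 of 12 and Hspa8 in 1 of 12. Hairpin sh3 differed from the mean of sh1 and sh2 in CT26 for Hsp90ab1 (0.54), Hspa8 (0.535), Cryab (0.384), Hsp90aa1 (0.211) and Hspd1 (0.059), by limma's contrast over the 4 hairpin groups. Here Hsp90aa1 kept the call in 8 of 9 such fits and Hspd1 in 2 of 9. With the length trend removed, Hsp90aa1 lost the call and Hspd1 turned sign. The list was drawn up with the stk response of Dnajb1 in Hepa1-6 and the response of Cryab to the hairpins known, and both contrasts reuse those libraries, so that these differences are descriptions and not independent evidence. The sh1 and sh2 profiles were closer to each other than to sh3, as given above, and 60.2% of all genes tested differed in this contrast.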

How the results depend on the processing

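Genes called with stk in CT26 numbered 85, but 14 without the filter, 50 with the length trend removed, 204 in the 4-group fit and 4 with the replicate block, and in Hepa1-6 175, but 4, 90, 928 and 4. Members called with stk in Hepa1-6 numbered 3, but 1 without the filter and 0 with the replicate block. For the difference between lines, 39 genes and 2 members were called, but 11 genes and 1 member with the block, and 1 member without the filter. For sh3 against sh1 and sh2, 5 members were called, but 3 without the filter and 3 with the length trend removed. Higher genes made up 17.6% of the calls with stk in CT26, but 30.2% with quantile normalization, and 58.8% with sh3, but 47.8% with the length trend removed. The cause of these shifts was not tested.

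With quantile normalization the sign turned for Hspd1 (0.024) with stk in CT26, for Hsp90aa1 (0.051) and Hspd1 (0.032) with stk in Hepa1-6, for Hspd1 (-0.02) in the difference between lines, and for Hspa8 (0.144) and Hsp90aa1 (0.136) in scramble against shLucif. With the length trend removed it turned for Dnajb1 (-0.017) and Hsph1 (-0.053) with sh3, for Hspd1 (-0.015) in sh3 against sh1 and sh2, and for Hspa8 (0.026) and Hsp90aa1 (0.016) in scramble against shLucif.

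With 1 library left out, genes called ranged from 2 to 92 with stk in CT26, 8 to 59 in Hepa1-6 and 7 to 28 for the difference between lines, and members from 0 to 1 in Hepa1-6, 0 to 3 for the difference and 3 to 6 for sh3 against sh1 and sh2. Members called ranged from 2 to 3 with sh1, 4 to 5 with sh3 and 2 to 3 for scramble, Cryab included. Signs turned for Cryab in the difference between lines (-0.152 to 0.075), Hsph1 under DMSO (-0.068 to 0.094), Hsp90aa1 with sh1 (-0.015 to 0.103) and sh2 (-0.018 to 0.134), Hsp90ab1 with sh2 (-0.063 to 0.006), Hsph1 with sh3 (-0.012 to 0.082) and Hspa8 in scramble against shLucif (-0.021 to 0.007). Same-numbered libraries did not deviate together (correlations -0.05 to 0.095), so the replicate block pairs samples by number only. With it Dnajb1 (0.461), Hspa8 (0.334) and Hsph1 (0.331) did not pass with stk in Hepa1-6. No block could be fitted for sh1. The sum of Hspa1a and Hspa1b stayed under the filter.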
